A study of Mus musculus with 10 samples.

Results

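The Spata (spermatogenesis associated) genes are mouse genes named for their discovery in testis. Of the 55421 genes counted in P21 mouse testes, 29 protein-coding genes with a symbol made of Spata and a digit are described. Members were taken by name and not by any measured value, but the set was chosen with earlier results of these data known. Of the 29, 28 were protein-coding in GENCODE M21 and the remaining one, Spata5l1, only in RefSeq. The genes are not 1 family in sequence, apart from 5 Spata31 genes on chromosome 13.

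Poly(A) RNA was sequenced from 3 wild type (Mov10+/+) and 3 Mov10-/- testis samples at postnatal day 21, each a pair of testes. Mov10 encodes an RNA helicase, and the question was which transcripts differ in testes without it. The Mov10-/- mice were global knockouts: Actb-Cre, driven by the ubiquitous beta-actin promoter, had removed floxed exons of the first RNA helicase domain, on a mixed genetic background. The series also holds 4 libraries of MOV10 CLIP-seq, in which RNA bound to the protein is sequenced, from wild type testes. The labels do not say more on the animals, so p-values measure the spread between these samples.

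In the first wave of mouse spermatogenesis, germ cells enter meiosis together and the earliest round spermatids appear at about the age used here. Spermatids then build the acrosome, the sperm neck, the midpiece with its sheath of mitochondria, and the flagellum, and many genes for these structures are switched on only after meiosis. Several Spata genes belong to that set, such as Spata16, which encodes a Golgi protein needed for the acrosome, and Spata6, needed for the connecting piece of the neck. Others, such as Spata2, Spata5 and Spata7, work in many tissues.

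Libraries held 5083407 to 9230540 reads on genes. Levels are CPM, a gene's reads relative to all reads on genes in its library, scaled by the TMM method. On this scale 3 reads were worth 0.322 to 0.617 CPM, and per kb means CPM divided by the kilobases of merged exons. Mov10 itself was at 114, 96.8 and 119.8 CPM in wild type and at 29.2, 26.7 and 26.8 CPM in Mov10-/- libraries, as labelled (log2 fold change -2.0, SE 0.12, adjusted p = 0.00552 by edgeR's quasi-likelihood test). Wild type replicate 2 stood apart: it was the highest wild type library for 24 of the 27 Spata genes that could be tested (88.9%), against 39.3% of all genes tested. Among the Mov10-/- libraries, replicate 3 was highest for 23 of the 27 (85.2%, against 43.1%), and 57.2% of its reads were not aligned. Fold changes of the Spata genes are therefore given with and without wild type replicate 2.

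Spata transcripts were lower in Mov10-/- testes by the median, but no single gene passed the call. To be called, a gene had to differ more than 2-fold with an adjusted p below 0.05 (edgeR, quasi-likelihood), and that was reached by 0 of the 27 genes in either direction. Over all 20240 genes tested it was reached by 0.00494% in the lower direction, which is Mov10 alone, and by 0% in the higher. Adjusted p of the Spata genes ran from 0.150 to 0.983. At an unadjusted p under 0.05, 18 of the 27 (66.7%) were lower, against 11.9% of all genes tested, and 0 were higher, against 5.58%. The median log2 fold change was -1.46, against 0.03 over all genes tested. A fitted fold change over 2 in the lower direction was seen for 15 (55.6%, against 9.78%), and 9 of these were over 4-fold.

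Groups did not overlap for 18 genes. Every Mov10-/- library was below every wild type library for 17 of the 27 (63.0%, against 14.1% of all genes tested). For 1 of these, Spata25, that order, and so its lower direction, was fixed in advance. Testing required more than 1 CPM in at least 3 of 6 libraries, which Spata25 met only in wild type. The opposite order was seen for 1, Spata2, against 11.9%. Without wild type replicate 2, 11 genes were lower at an unadjusted p under 0.05 (6.47% of all genes then tested), 0 were higher (3.02%) and the median log2 fold change was -0.61. These 11 were Spata1, Spata3, Spata7, Spata9, Spata19, Spata20, Spata21, Spata31, Spata31d1d, Spata46 and Spata48.

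**Figure D1:**
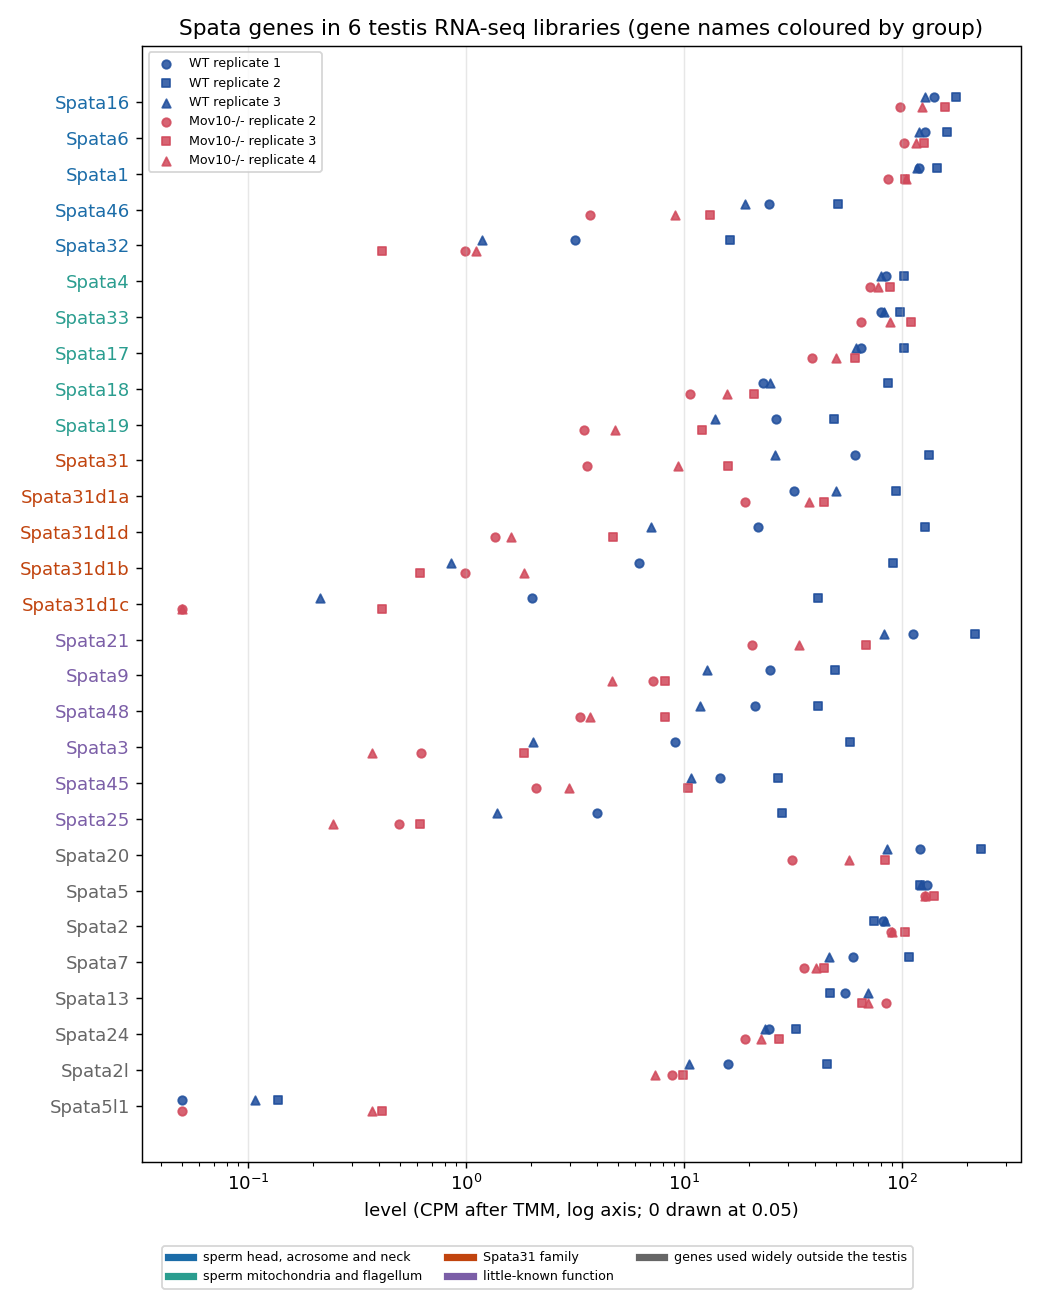
Level of each of the 29 Spata genes in CPM on a log axis, 1 point per library, wild type in blue and Mov10-/- in red, with gene names coloured by group and a level of 0 drawn at 0.05. The groups separate for genes such as Spata31 (lowest wild type 26.2, highest Mov10-/- 16.0 CPM) and mix for genes such as Spata33 and Spata16.

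The call depended on the test. In the lower direction, DESeq2 called 10 of the 27 (4.88% of all genes tested), and edgeR's exact test and likelihood ratio test called the same 12 (5.09% and 5.45%). The 10 were Spata3, Spata9, Spata19, Spata25, Spata31, Spata31d1b, Spata31d1d, Spata32, Spata46 and Spata48, and the 12 held in addition Spata20 and Spata21. limma voom called 0, against 0.00494% of all genes tested, with 11 at an unadjusted p under 0.05 (10.9%). No test called a Spata gene higher, against 0.252% of all genes with DESeq2, 0.346% and 0.41% with the exact and likelihood ratio tests, and 0.00494% with limma voom.

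Spermatid markers moved with these values, while spermatocyte and spermatogonia markers did not pass in the same direction. Of 27 spermatid markers tested (30 listed, 29 in the files), 25 were lower at an unadjusted p under 0.05 and 0 higher, with a median log2 fold change of -2.50, and none was at 0. Over all genes tested, 11.9% were lower and 5.58% higher. Every Mov10-/- library was below every wild type library for 19 of the 27 markers, against 14.1% of all genes tested. For these markers, values without wild type replicate 2 are not given. It was also not examined whether some passed the filter only through wild type libraries. Their summed level was 502 to 2047 CPM in wild type and 136 to 439 CPM in Mov10-/- libraries, highest in the same replicates, 2 and 3, as the Spata genes. Their part in the Spata values was not tested, and in bulk samples fewer cells of a type and less RNA per cell cannot be told apart. Of 23 spermatocyte markers, 0 passed in either direction (median 0.08), and they summed to 2547 to 2756 CPM in wild type and 2341 to 3024 CPM in Mov10-/- libraries. Of 18 spermatogonia markers, 1 was higher (median 0.21), near the share of all genes.

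Somatic markers had medians above 0. Their counts at an unadjusted p under 0.05 stand beside 5.58% higher and 11.9% lower over all genes tested. Of 15 Sertoli markers tested, 6 were higher and 0 lower (median 0.31), with sums of 1025 to 1252 CPM in wild type and 1332 to 1577 CPM in Mov10-/- libraries, and Rhox8 at 0 in all. Of 11 Leydig markers 1 was higher (median 0.23), of 12 peritubular and endothelial markers 3 (median 0.30), and of 12 macrophage markers 0 (median 0.32). For adipocytes, 4 of 10 were higher (median 0.79), with sums of 53.9 to 65.9 CPM and 104 to 153 CPM. Only 3 of 9 epididymis markers could be tested, with 0 passing. Lcn8 and Lcn9 were at 0, and the list summed to 11.4 to 81.1 CPM in wild type and 5.96 to 209 CPM in Mov10-/- libraries, highest in Mov10-/- replicate 2. The part of these cells in the Spata values was not tested.

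**Figure D2:**
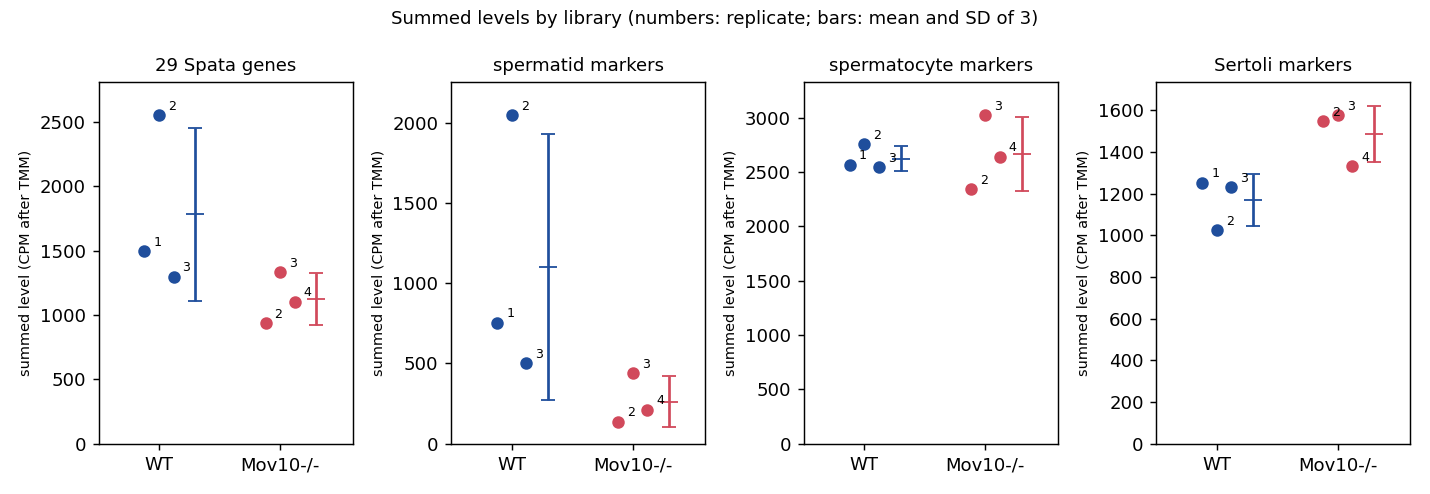
Summed CPM of the 29 Spata genes and of the spermatid, spermatocyte and Sertoli markers, with 1 point per library labelled by replicate number, and the mean and SD of 3 beside the points. Spata sums were 1494, 2554 and 1299.6 CPM in wild type and 935, 1334 and 1104 CPM in Mov10-/- replicates 2, 3 and 4, so that Mov10-/- replicate 3 lay above wild type replicate 3.

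The Spata31 family had the lowest median log2 fold change of the groups of Spata genes. These genes encode large proteins made in late germ cells, and the mouse copies have arisen by duplication. Of 4 tested, 3 were lower at an unadjusted p under 0.05, against 11.9% of all genes tested. In 2, every Mov10-/- library was lower, against 14.1% of all genes, and the median log2 fold change was -3.70. Spata31 (ENSMUSG00000056223, chr13:64917406-64923194, + strand, GRCm38) was at 60.9, 134 and 26.2 CPM in wild type replicates 1, 2 and 3 and at 3.60, 16.0 and 9.38 CPM in Mov10-/- replicates 2, 3 and 4. The groups were apart, and the lowest wild type library exceeded the highest knockout one. Means were 73.5 ± 54.8 and 9.67 ± 6.22 CPM (SD, n = 3 each), a log2 fold change of -2.97 (SE 0.68, adjusted p = 0.150, edgeR quasi-likelihood), or -2.21 without wild type replicate 2. It had the highest level per kb of the family, 22.8 ± 16.9 CPM per kb in wild type.

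The other members lay close together in 2 places on the chromosome. Spata31d1d (chr13:59725925-59731752, - strand) was at 21.8, 128 and 7.09 CPM in wild type and at 1.36, 4.73 and 1.60 CPM in Mov10-/- libraries, without overlap. Its log2 fold change was -4.44 (SE 1.12, adjusted p = 0.150, edgeR quasi-likelihood), or -2.56 without wild type replicate 2, and 3.76% of its exon bases lay opposite Gm46419. Spata31d1b was at 6.24, 90.8 and 0.859 CPM in wild type and at 0.993, 0.617 and 1.85 CPM in Mov10-/- libraries. Here the groups overlapped, since wild type replicate 3 lay below 2 of the knockout libraries, and wild type replicate 2 alone was high, 105.7 times replicate 3. The fitted log2 fold change of -4.74 (SE 1.54, adjusted p = 0.189, edgeR quasi-likelihood) came to -1.53 without that library.

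Spata31d1a, its neighbour, had another pattern. Its levels were 31.9, 93.8 and 49.8 CPM in wild type and 19.1, 44.2 and 37.6 CPM in Mov10-/- libraries, which overlap. The log2 fold change was -0.80 (SE 0.43, adjusted p = 0.378, edgeR quasi-likelihood), or -0.29 without wild type replicate 2. Spata31d1c (chr13:65033058-65038004, + strand) was above 1 CPM in only 2 libraries and was not tested. Its reads, shown after its values were seen, numbered 17, 300 and 2 in wild type and 0, 2 and 0 in Mov10-/- libraries. The summed counts of 319 and 2 gave a depth-scaled ratio of 132.6, with an exact 95% interval of 36.4 to 1100 for counting error only, and wild type replicate 2 gave most of them.

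Spata31d1a and Spata31d1b are printed because they start close together, resemble each other and yet differed in pattern. Between them, 19.8% and 24.9% of their 50-base exon stretches also occur in other genes, chiefly in each other, so that reads from such stretches cannot be assigned and both counts are uncertain there. Their RefSeq promoters (250 bases before to 50 after a start, GRCm38.p6) aligned over 284 bases with 274 identical (96.5%), against 63.5% to 73.7% for the other pairs of the family. Capitals mark the 10 substitutions and the 16 bases on each side with no counterpart inside the window. The first lies at chr13:59706148-59706447 on the - strand, inside the GENCODE gene, and the second at chr13:59712034-59712333 on the + strand.
Spata31d1a: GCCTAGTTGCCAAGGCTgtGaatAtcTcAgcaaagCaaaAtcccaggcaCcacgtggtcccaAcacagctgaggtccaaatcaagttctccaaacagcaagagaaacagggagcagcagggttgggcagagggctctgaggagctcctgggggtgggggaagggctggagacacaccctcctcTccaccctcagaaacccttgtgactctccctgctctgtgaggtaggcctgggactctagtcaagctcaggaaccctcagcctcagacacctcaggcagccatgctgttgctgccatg
Spata31d1b: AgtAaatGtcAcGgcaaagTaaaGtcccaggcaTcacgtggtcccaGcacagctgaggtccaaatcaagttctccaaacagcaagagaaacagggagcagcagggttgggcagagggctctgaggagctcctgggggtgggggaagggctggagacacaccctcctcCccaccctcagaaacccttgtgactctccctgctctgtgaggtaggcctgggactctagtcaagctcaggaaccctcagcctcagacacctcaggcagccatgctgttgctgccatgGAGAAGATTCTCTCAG
Wild type means of the 2 genes were 58.5 ± 31.8 and 32.6 ± 50.4 CPM and their Mov10-/- means 33.7 ± 13.0 and 1.15 ± 0.633 CPM. Whether the transcripts counted start at these promoters, and any link of the sequence to the levels, was not tested.

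Among 5 genes of the sperm head, acrosome and neck, 3 were lower at an unadjusted p under 0.05, against 11.9% of all genes tested. The same 3 did not overlap, against 14.1% of all genes in that direction, and the median log2 fold change was -0.38. Spata46, which encodes a protein of the nuclear envelope of the sperm head, was at 24.5, 50.9 and 19.1 CPM in wild type and at 3.72, 13.2 and 9.13 CPM in Mov10-/- libraries. The groups were apart, with a log2 fold change of -1.88 (SE 0.52, adjusted p = 0.157, edgeR quasi-likelihood), or -1.35 without wild type replicate 2. Spata32, expressed in spermatids, was low throughout, at 3.18, 16.3 and 1.18 CPM in wild type and 0.993, 0.411 and 1.11 CPM in Mov10-/- libraries. Wild type replicate 3 and knockout replicate 4 nearly met, on 11 and 9 reads. This gave a log2 fold change of -2.94 (SE 0.97, adjusted p = 0.192, edgeR quasi-likelihood), or -1.28 without wild type replicate 2.

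Spata1, Spata6 and Spata16 were more abundant and differed less. Spata1 was at 120.1, 145 and 118 CPM in wild type and at 86.6, 103 and 105 CPM in Mov10-/- libraries. The groups did not overlap, and the log2 fold change was -0.38 (SE 0.12, adjusted p = 0.191, edgeR quasi-likelihood), or -0.27 without wild type replicate 2. Spata6 was at 128, 161 and 121 CPM in wild type and at 102, 126 and 116 CPM in Mov10-/- libraries, with overlap. Its log2 fold change was -0.25 (SE 0.14, adjusted p = 0.393, edgeR quasi-likelihood), or -0.11 without wild type replicate 2. Spata16 was the highest of this group per kb, at 70.4 ± 12.0 CPM per kb in wild type. It was at 141, 177 and 128 CPM in wild type and at 97.9, 159 and 124 CPM in Mov10-/- libraries, also with overlap (log2 fold change -0.23, SE 0.19, adjusted p = 0.567, edgeR quasi-likelihood, and -0.09 without wild type replicate 2). The acrosome and neck genes with roles best known, Spata16 and Spata6, were thus among the genes whose groups mixed.

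Other genes for the same structures showed a like mixture, from lists chosen with earlier results of these data known. Of 13 genes of acrosome formation tested, 5 were lower and 0 higher at an unadjusted p under 0.05 (median log2 fold change -0.21). Over all genes tested the shares were 11.9% and 5.58%. Zpbp, for a zona pellucida binding protein of the acrosome, was at 116, 150.2 and 117 CPM in wild type and at 76.3, 85.5 and 98.7 CPM in Mov10-/- libraries (log2 fold change -0.55, SE 0.14, adjusted p = 0.150, edgeR quasi-likelihood). Fam209, for a partner of DPY19L2 in acrosome formation, was at 17.8, 39.7 and 12.0 CPM and at 2.85, 9.87 and 4.57 CPM (log2 fold change -2.04, SE 0.58, adjusted p = 0.163, edgeR quasi-likelihood). Both separated the groups, which is no separate result, since they were named for the lowest p of their list.

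Of 11 genes of the neck and head-tail coupling tested, 5 were lower and 0 higher (median -0.28), against 11.9% and 5.58% of all genes tested. Pmfbp1, needed to hold the sperm head on its tail, was at 106, 211 and 59.7 CPM in wild type and at 11.9, 45.0 and 17.4 CPM in Mov10-/- libraries (log2 fold change -2.38, SE 0.59, adjusted p = 0.150, edgeR quasi-likelihood). Sun5, its partner in the neck and also 1 of the spermatid markers above, was at 29.8, 69.4 and 14.9 CPM and at 2.61, 14.0 and 3.58 CPM (log2 fold change -2.56, SE 0.76, adjusted p = 0.167, edgeR quasi-likelihood). Both were named for the lowest p of their list, so it is no separate result that neither gene overlapped between groups.

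Among 5 genes of sperm mitochondria and the flagellum, 3 were lower at an unadjusted p under 0.05 and did not overlap (median log2 fold change -0.62). Over all genes tested, 11.9% were lower at that limit and 14.1% had every Mov10-/- library lower. Spata19, for a protein of the midpiece mitochondria, was at 26.4, 48.9 and 13.9 CPM in wild type and at 3.47, 12.1 and 4.81 CPM in Mov10-/- libraries. The lowest wild type library stood just above the highest knockout one. In log2 terms the fold change was -2.16 (SE 0.59, adjusted p = 0.156, edgeR quasi-likelihood), or -1.60 without wild type replicate 2. Spata18, also named Mieap, acts in mitochondrial quality control and was at 23.2, 86.8 and 24.9 CPM in wild type and at 10.7, 21 and 15.8 CPM in Mov10-/- libraries. Its log2 fold change of -1.51 (SE 0.54, adjusted p = 0.215, edgeR quasi-likelihood) came to -0.61 without wild type replicate 2, which was over 3 times the other wild type libraries.

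Spata17, for a calmodulin-binding protein with IQ motifs, was at 64.9, 102 and 61.7 CPM in wild type and at 38.8, 61.3 and 49.7 CPM in Mov10-/- libraries. Wild type replicate 3 and knockout replicate 3 all but met, and the log2 fold change was -0.62 (SE 0.24, adjusted p = 0.246, edgeR quasi-likelihood), or -0.35 without wild type replicate 2. Spata4, for a protein with a calponin-homology domain, had the highest level per kb of all 27 genes, 84.2 ± 11.1 CPM per kb in wild type, on a range that began at 6.19 for Spata32. It was at 84.8, 102 and 79.9 CPM in wild type and at 71.5, 88.6 and 77.6 CPM in Mov10-/- libraries, which overlap, and 11.1% of its exon bases lay opposite 5330439A09Rik (log2 fold change -0.17, SE 0.13, adjusted p = 0.547, edgeR quasi-likelihood, and -0.05 without wild type replicate 2). Spata33, which ties calcineurin to sperm mitochondria, was nearly the same in both groups, at 87.0 ± 9.68 and 87.9 ± 22.9 CPM (SD, n = 3 each, log2 fold change 0.01, SE 0.19, and 0.10 without wild type replicate 2). The sign of this value turned in 10 of the 16 other settings tried. No other Spata gene changed sign in any of them.

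Of 12 genes of the mitochondrial sheath and flagellar calcineurin, 2 were lower and 0 higher at an unadjusted p under 0.05 (median log2 fold change -0.12). Over all genes tested the shares were 11.9% and 5.58%, so the list as a whole was near the share of all genes. Tbc1d21, needed for the mitochondrial sheath, was at 23.1, 65.5 and 11.2 CPM in wild type and at 1.12, 7.20 and 1.60 CPM in Mov10-/- libraries (log2 fold change -3.42, SE 0.87, adjusted p = 0.150, edgeR quasi-likelihood). Armc12, which acts in the same sheath, was at 28.5, 68.2 and 19.3 CPM and at 2.61, 12.7 and 6.30 CPM (log2 fold change -2.46, SE 0.64, adjusted p = 0.150, edgeR quasi-likelihood). Both were named for the lowest p of their list. In both, the order of libraries was that of Spata19: wild type replicate 2 highest, knockout replicate 2 lowest.

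The 6 genes of little-known function were the most uniform group. All 6 were lower at an unadjusted p under 0.05, against 11.9% of all genes tested. None overlapped, against 14.1% of all genes with every Mov10-/- library lower, and the median log2 fold change was -2.22. For Spata25 the direction and the lack of overlap were fixed by the filter, as it was above 1 CPM only in wild type. Spata48 (chr11:11462094-11515192, + strand) was at 21.3, 41.2 and 11.9 CPM in wild type and at 3.35, 8.22 and 3.70 CPM in Mov10-/- libraries. The log2 fold change was -2.31 (SE 0.54, adjusted p = 0.150, edgeR quasi-likelihood), or -1.74 without wild type replicate 2. Of its exon bases 12.0% lay opposite Zpbp, the acrosome gene given above.

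Spata9 (chr13:75967150-75998972, + strand) was at 24.8, 49.6 and 12.8 CPM in wild type and at 7.20, 8.22 and 4.69 CPM in Mov10-/- libraries. Its log2 fold change was -2.12 (SE 0.50, adjusted p = 0.150, edgeR quasi-likelihood), or -1.49 without wild type replicate 2. The wild type libraries spread 3.88-fold and the knockout libraries 1.75-fold. Spata21, for a protein with an EF-hand calcium-binding motif, had the highest level per kb of this group, 52.2 ± 26.5 CPM per kb. It was at 112, 216 and 83.1 CPM in wild type and at 20.6, 68.9 and 33.7 CPM in Mov10-/- libraries, without overlap (log2 fold change -1.77, SE 0.48, adjusted p = 0.156, edgeR quasi-likelihood, and -1.28 without wild type replicate 2). Spata45 had a log2 fold change of -1.79 (SE 0.64, adjusted p = 0.214, edgeR quasi-likelihood), or -1.35 without wild type replicate 2.

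Spata3 and Spata25 were near the limit of detection in Mov10-/- testes. Spata3 (chr1:86016816-86029958, + strand) was at 9.07, 57.7 and 2.04 CPM in wild type and at 0.620, 1.85 and 0.370 CPM in Mov10-/- libraries. The knockout values rested on 5, 9 and 3 reads, and the wild type libraries spread 28.3-fold. This came to a log2 fold change of -4.70 (SE 1.28, adjusted p = 0.155, edgeR quasi-likelihood), or -2.66 without wild type replicate 2. Spata25 (chr2:164826389-164828537, - strand) had 34, 205 and 13 reads in wild type and 4, 3 and 2 reads in Mov10-/- libraries, or 4.0, 28.1 and 1.40 against 0.496, 0.617 and 0.247 CPM. Its log2 fold change was -4.62 (SE 1.21, adjusted p = 0.150, edgeR quasi-likelihood), and it was too low to test without wild type replicate 2. Of its exon bases 21.5% lay opposite Zswim1, whose groups overlapped (log2 fold change -0.12).

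**Figure D3:**
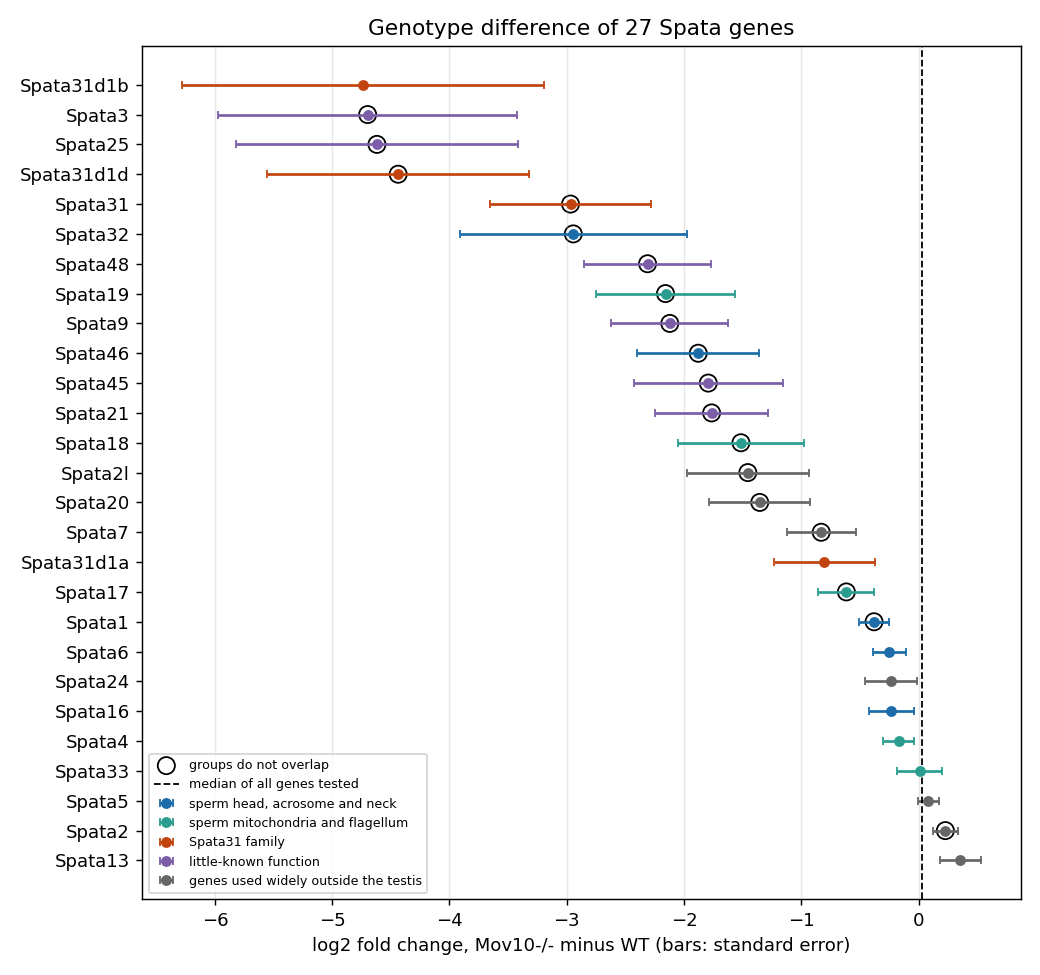
Log2 fold change of the 27 Spata genes tested, Mov10-/- minus wild type, with bars for the standard error, colours for the groups of genes, and rings where the libraries of both genotypes do not overlap. The values run from -4.74 (Spata31d1b) to 0.36 (Spata13), and the dashed line marks the median of all genes tested, 0.03.

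Among 8 genes grouped here as used widely outside the testis, 7 could be tested, with a median log2 fold change of -0.23. Levels in other tissues were not examined, so the group name is not a result for each of its genes. At an unadjusted p under 0.05, 3 were lower, against 11.9% of all genes tested. Spata20, for a thioredoxin-like protein, was at 122, 229.9 and 85.4 CPM in wild type and at 31.4, 83.5 and 57.4 CPM in Mov10-/- libraries, and was highest of the group per kb at 50.7 ± 26.2 CPM per kb. Wild type replicate 3 and knockout replicate 3 nearly met. The log2 fold change was -1.35 (SE 0.43, adjusted p = 0.183, edgeR quasi-likelihood), or -0.86 without wild type replicate 2.

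Spata7, for a protein of the connecting cilium of retinal photoreceptors, was at 59.7, 108 and 46.3 CPM in wild type and at 35.7, 44.0 and 40.6 CPM in Mov10-/- libraries. These groups were apart by a small gap, with a log2 fold change of -0.83 (SE 0.30, adjusted p = 0.215, edgeR quasi-likelihood), or -0.40 without wild type replicate 2. Spata2l, for a relative of SPATA2 that also binds CYLD, was at 15.9, 45.2 and 10.5 CPM in wild type and at 8.81, 9.87 and 7.41 CPM in Mov10-/- libraries. Its log2 fold change was -1.46 (SE 0.52, adjusted p = 0.217, edgeR quasi-likelihood), or -0.60 without wild type replicate 2. Of its exon bases 12.6% lay opposite Cdk10 and 4933417D19Rik, with log2 fold changes of 0.11 and -2.19.

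Spata2 was the 1 gene with every Mov10-/- library above every wild type library. It encodes the adaptor that brings the deubiquitinase CYLD to the LUBAC ubiquitin ligase in tumour necrosis factor signalling, and it was at 82.0, 74.4 and 84.0 CPM in wild type and at 89.0, 103 and 89.9 CPM in Mov10-/- libraries. The log2 fold change was 0.23 (SE 0.11, adjusted p = 0.320, edgeR quasi-likelihood), or 0.18 without wild type replicate 2. Of 8 genes of that complex, 2 were higher at an unadjusted p under 0.05 and 0 lower (median 0.15), against 5.58% and 11.9% of all genes tested. Rbck1, a LUBAC subunit, was at 89.0, 83.0 and 102 CPM in wild type and at 112, 130.1 and 106 CPM in Mov10-/- libraries (log2 fold change 0.35, SE 0.12, adjusted p = 0.211, edgeR quasi-likelihood). Rnf31, its catalytic subunit, was at 45.3, 39.3 and 52.1 CPM and at 55.8, 68.3 and 57.3 CPM (log2 fold change 0.40, SE 0.15, adjusted p = 0.230, edgeR quasi-likelihood). Both were named for the lowest p of their list. Neither overlapped, and both had knockout replicate 3 highest, as Spata2 did.

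The remaining genes grouped as widely used did not pass at an unadjusted p under 0.05 or had too few reads to test. Spata5, for an AAA ATPase of ribosome maturation, had a log2 fold change of 0.08 (SE 0.09, and 0.06 without wild type replicate 2) at 125 ± 5.24 and 132 ± 7.45 CPM, with 8.13% of its exon bases opposite Nudt6. Spata13, for an exchange factor of Rac and Cdc42, had a log2 fold change of 0.36 (SE 0.17, and 0.24 without wild type replicate 2), at 57.3 ± 11.9 and 73.3 ± 9.93 CPM. It was the gene that was higher at an unadjusted p under 0.05 without wild type replicate 3 (log2 fold change 0.52, adjusted p = 0.174, edgeR quasi-likelihood). Spata24, for a partner of the TBP-like factor, had a log2 fold change of -0.23 (SE 0.22, and -0.07 without wild type replicate 2). The groups overlapped in all 3 genes. Spata24 shared 41.9% of its exon bases with an all-capitals entry, SPATA24, on the same strand, which had 0 reads in all libraries. Spata5l1, the paralog of Spata5, had 2 reads in wild type and 5 in Mov10-/- libraries in sum, too few to test (ratio 0.333, exact 95% interval 0.0317 to 2.03 for counting error only).

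The difference between genotypes went together with the spread inside the wild type group. In 17 of the 27 genes the highest wild type library was over 2 times the lowest, and 16 of these were lower at an unadjusted p under 0.05. In the 10 with a smaller spread, 2 were, Spata1 and Spata17. Both measures share the wild type libraries, so this is a description. Over all genes tested 11.9% were lower at that limit. That share was not split by wild type spread, so the link is not shown to be particular to Spata genes. The wild type spread exceeded the ratio of wild type to Mov10-/- means in 17 of the 27, among them 8 of the 18 lower at an unadjusted p under 0.05. Spata2, Spata5, Spata13 and Spata33 were among the 17 whatever their spread, since their Mov10-/- mean was the higher one. By size, the wild type spread of Spata2 (1.13-fold) was below its fitted fold change (1.17-fold). With 3 libraries against 3, an exact permutation test of a single gene cannot go below 0.1 (two-sided).

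**Figure D4:**
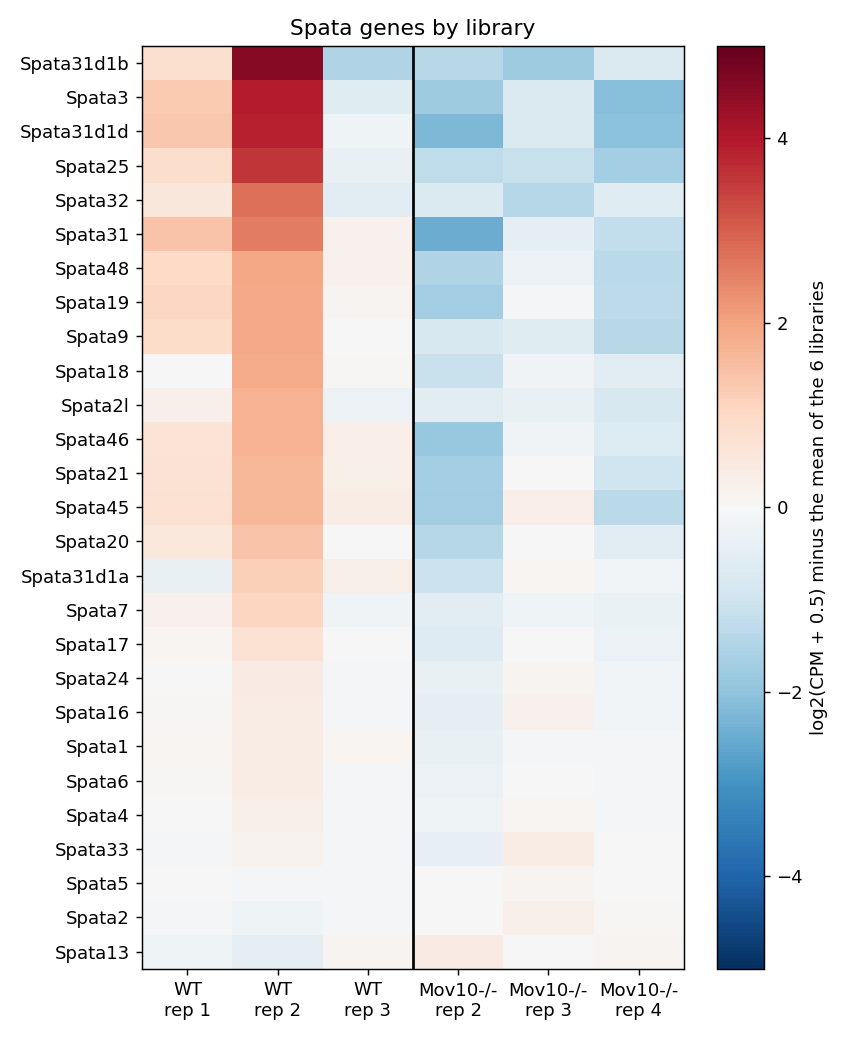
Each of the 27 Spata genes tested by library, as log2(CPM + 0.5) minus the mean of the 6 libraries, red above and blue below that mean, ordered by wild type replicate 2. The median over the genes was 1.64 in wild type replicate 2 and -0.04 in replicate 3, beside -0.05 in Mov10-/- replicate 3 and -0.80 in replicate 2, so that the spread inside each genotype is of the order of the gap between them.

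Promoters of the Spata genes were searched for 4 motifs of germ cell regulators. RefSeq promoters were used for 27 of the 29 genes (34 promoters). Spata2l had no entry in the source, and Spata24 was left out of the search with its whole chromosome. The cyclic AMP response element, TGACGTCA on either strand, is bound by CREM, a regulator of spermatid genes, and was in 1 of the 34 (2.94%), against 1.79% of 32851 promoters. Its shorter form TGACG, which also counts matches inside the full element, was in 11 (32.4%, against 20.8%), from Spata1, Spata2, Spata5, Spata5l1, Spata6, Spata7, Spata18, Spata32 and Spata48. Promoters of a gene can overlap, and the same Spata1 site was counted in each of its overlapping promoters. The X-box half-site GTTGCC, of the kind that RFX factors bind, was in 4 (11.8%, against 12.5%), from Spata4, Spata31d1a, Spata33 and Spata45. The MYB site CAACTG was in 1 (2.94%, against 13.7%), from Spata48. These matches are a description and not binding sites. The full element, in capitals, is shown with its surroundings in Spata7 because it was the only one among these promoters. Its first letter lay 7 bases before the RefSeq start. The whole stretch printed is chr12:98628095-98628182 (GRCm38.p6, + strand).
Spata7: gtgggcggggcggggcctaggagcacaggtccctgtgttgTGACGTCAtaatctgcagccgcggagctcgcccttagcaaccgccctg
Spata7 was among the genes lower at an unadjusted p under 0.05, at 71.4 ± 32.5 CPM in wild type and 40.1 ± 4.16 CPM in Mov10-/- libraries.

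MOV10 CLIP-seq held few reads on these genes. The libraries had 9468912 to 15182658 reads in the deposited counts, of which 99.48% to 99.57% were not aligned. Of the reads placed, 82.2% to 90.9% fell outside genes. There were 3404 to 4934 reads on genes, of which 3 to 6 per library fell on Spata genes. Those shares were 0.101%, 0.0876%, 0.0881% and 0.122% in replicates 1, 2, 3 and 5, with an exact (Clopper-Pearson) 95% interval of 0.0446% to 0.264% for the last, for counting error only. Counts of replicates 1, 2 and 3 were closer to each other than counting error leaves independent libraries (chi-square per degree of freedom 0.219 to 0.237). Against replicate 5 the value was 1.63 to 1.93. Replicates 1, 2 and 3 are therefore not taken as independent samples, though their values are listed separately. In wild type RNA-seq the same genes held 0.151%, 0.245% and 0.131% of reads. Only Spata1, Spata21 and Spata7 had any CLIP-seq read, with 1, 1, 0 and 5, with 2, 1, 2 and 1, and with 1, 1, 1 and 0 in replicates 1, 2, 3 and 5. The other 26 genes had none, so that differences in binding among Spata genes were not detectable with so few reads on genes.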

How the data were processed

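Deposited were 10 files of P21 mouse testis libraries, each giving the authors' raw count of every Ensembl gene. For RNA-seq they trimmed adapters, aligned to mm10 with STAR and counted with HTSeq on Ensembl v99. The strand setting of counting and the CLIP-seq aligner are not given in the sources used here, so overlapping genes on opposite strands may share reads. Names came from GENCODE M21 (55240 of 55421 genes matched). RNA-seq counts were tested with edgeR 4.0.16 in R 4.3.3 (TMM, quasi-likelihood F test, genotype only) on 20240 genes above 1 CPM in at least 3 of 6 libraries, with Benjamini-Hochberg adjustment over all of them. SE was the log2 fold change over the square root of F. The test was checked on simulated data. DESeq2 1.42.0, limma 3.58.1 (voom), other tests, scalings and filters, a replicate block and each library left out were alternatives. Spata genes and lists were chosen with earlier results of these data known. Values per library are given for the 4 genes of lowest p and the gene of highest level per kb in each group, and the 2 of lowest p in each partner list. 1 gene of this name pattern is not reported here.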

Additional observations from a re-analysis of the deposited data

How the results depend on the processing

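The direction held for 26 of the 27 genes in each of the 16 alternatives in which they passed the filter on low values (Spata3, Spata25, Spata31d1b and Spata32 did not in some). For Spata33 (0.01 on the log2 scale) the value turned to -0.00546 with DESeq2, -0.00680 with RLE factors, -0.00545 with upper-quartile factors, -0.00905 with no filter on low counts, -0.0145 with a filter of 1 CPM in all libraries, -0.0437 with limma voom and -0.0919 with the replicate block, and ran from -0.185 (without Mov10-/- replicate 3) to 0.190 (without Mov10-/- replicate 2) with single libraries left out, below 0 also without wild type replicates 1 and 3. The count of Spata genes called lower, 0, became 10 with DESeq2, 12 with edgeR's exact test and 12 with its likelihood ratio test. The count lower at an unadjusted p under 0.05, 18, became 11 with limma voom and ran from 11 (without wild type replicate 2) to 18 with single libraries left out. The count higher, 0, became at most 1 (range 0 to 1), Spata13 without wild type replicate 3. The median log2 fold change ran from -1.73 to -0.61, the latter without wild type replicate 2. Left out singly after seeing the data, libraries gave 17 to 21 genes with every Mov10-/- library lower and 1 to 2 with every one higher, against 16% to 21.9% and 13.5% to 19.5% of all genes tested in the same comparisons of 2 with 3 libraries. The causes were not tested beyond what leaving out a library shows. With the replicate number as a block, 4 genes (0.731% of all genes tested) were called lower, Spata21, Spata31, Spata31d1b and Spata31d1d. The genotypes share only numbers 2 and 3, and same-numbered samples deviated against each other (r = -0.463 and -0.344), so that the numbers do not pair the samples. With 3 libraries a group, wide wild type spread and 5083407 reads in the shallowest library, the genes with a mean below 1 CPM in Mov10-/- testes, Spata3, Spata5l1, Spata25, Spata31d1c and Spata32, rest there on few reads, and fold changes printed for them are imprecise.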
